A study of Zea mays with 2 samples.

Results

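Broad methylation peaks are stretches of the maize genome of 1 kb or longer that were called as 1 continuous peak of methylated DNA. They were chosen by their called length alone, on chromosomes 1 to 10, from the peak lists of embryo and endosperm. There were 1766 broad peaks among 351748 embryo peaks and 1048 among 114577 endosperm peaks, 2814 in all. The study profiled immature seeds of the inbred line B73, whose embryo and endosperm were both taken 14 days after self-pollination, with 1 library per tissue. Methylated DNA immunoprecipitation sequencing (MeDIP-seq) pulls down DNA fragments with an antibody against 5-methylcytosine, and a peak is a place where the sequenced fragments pile up. With 1 library per tissue, a difference between tissues has no replicate check, and what the library adds cannot be told apart from what tissue adds. The intervals below are 95% Wilson intervals of a share, turned into a ratio where a ratio is given, and cover counting error only. The deposited lists hold no read numbers, so the reads behind each peak were not used here. The study mapped similar numbers of reads from both libraries.

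Cytosines in plant DNA are methylated in the CG, CHG and CHH contexts, where H is any base but G. The methyltransferase MET1 keeps CG methylation through DNA replication, chromomethylases act on CHG and CHH sites, and small RNAs guide new methylation in all contexts. In maize most methylated DNA lies in transposable elements and other repeats, which fill the space between genes. The embryo gives rise to the next plant, whereas the endosperm is a nourishing tissue with an extra maternal genome. In endosperm of Arabidopsis and of cereals, DNA glycosylases of the DEMETER family remove methylation from many places on the maternal genomes.

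The embryo had 1.69 times as many broad peaks as the endosperm (1.56 to 1.82), whereas it had 3.07 times as many peaks of any length. Broad peaks made up 0.502% of embryo peaks (0.479 to 0.526%) and 0.915% of endosperm peaks (0.861 to 0.971%). They covered 2562 kb in embryo and 1722 kb in endosperm, which were 2.29% and 5.95% of the length of all peaks in each tissue. Broad peaks were thus a larger share of the endosperm list than of the embryo list, by number and by length. This order depended on the length limit and on how close a pair of peaks may lie before it counts as 1 peak. With a limit of 800 bp the embryo had 6139 such peaks and the endosperm 1570, a ratio of 3.91, and their share of the list was larger in embryo, at 1.75% against 1.37%. When neighbouring peaks with 200 bp or less between them were merged, 6208 stretches in embryo and 1701 in endosperm reached 1 kb, a ratio of 3.65, and with a joining distance of 500 bp the numbers were 19429 and 2955, a ratio of 6.57.

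Most embryo broad peaks lay close to the lower limit. Their median length was 1203 bp and 74.2% were under 1500 bp, against a median of 1387 bp and 56.5% in endosperm. At 1500 bp or longer the tissues had 455 and 456 peaks, and at 2000 bp or longer 185 and 207, a ratio of 0.894 with an interval of 0.733 to 1.09 that includes equal numbers. At 3000 bp or longer the embryo had 75 peaks and the endosperm 48, a ratio of 1.56 (1.09 to 2.24). At 4000 bp or longer they had 31 and 18, a ratio of 1.72 (0.971 to 3.05). Just inside the limit, at 1000 to 1009 bp, there were 90 embryo and 16 endosperm peaks, with median diffScores of 308.2 and 376.5. Just outside it, at 990 to 999 bp, there were 68 and 17 peaks, with medians of 243.6 and 275.8. From 1000 to 1099 bp to 1100 to 1199 bp the number fell from 566 to 302 in embryo, whereas it was 168 and 179 in endosperm.

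**Figure D1:**
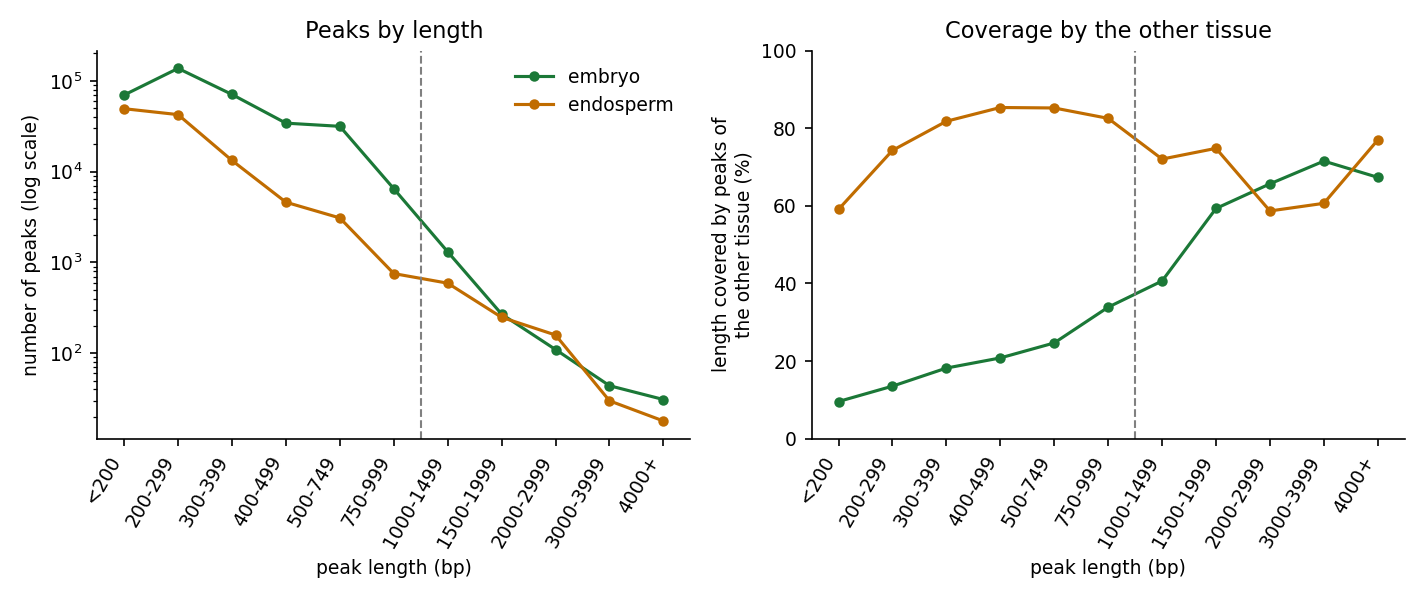
Left, number of peaks (log scale) by peak length in bp for embryo (green) and endosperm (orange), and right, the percentage of the summed length in each class that peaks of the other tissue covered. The dashed line marks 1000 bp, past which the numbers in both tissues drew together, from 1311 and 592 peaks at 1000 to 1499 bp to 270 and 249 at 1500 to 1999 bp.

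The diffScore, which is minus 10 times the log10 of the caller's p-value for a peak, was higher in broad peaks than in the lists as a whole. Its median was 309.3 in embryo broad peaks and 303.0 in those of endosperm, against 87.8 and 67.3 for all peaks. Among shorter peaks the median also rose with length. It went from 60.2 under 200 bp to 272.5 at 750 to 999 bp in embryo, and from 58.4 to 221.8 in endosperm. The part of length in the higher scores of broad peaks was not tested. Relative to length, broad peaks had the lower score, with a median of 24.6 per 100 bp in embryo and 20.3 in endosperm, against 34.2 and 34.1 for all peaks. Broad peaks were not evenly strong. In embryo 134 of them (7.59%) and in endosperm 171 (16.3%) had a diffScore under 100, where the lists begin at 50. At the other end, broad peaks were 486 of the 2912 embryo peaks and 316 of the 573 endosperm peaks with a diffScore of 500 or more, which is 16.7% and 55.1%.

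At most broad peaks the other tissue also had a peak. Of the 1766 embryo broad peaks, 1347 (76.3%, 74.2 to 78.2%) overlapped an endosperm peak by at least 1 bp, against 23.7% of all embryo peaks. Of the 1048 endosperm broad peaks, 917 (87.5%, 85.4 to 89.4%) overlapped an embryo peak, against 74.3% of all endosperm peaks. A longer peak has more room to be overlapped, so the midpoint gives a measure that length alone does not raise. The midpoint of 52.2% of embryo broad peaks lay in an endosperm peak, against 20.3% of all embryo peaks. For endosperm broad peaks this share was 73.7%, close to the 72.2% of all endosperm peaks. In embryo, at diffScores of 50 to 100, the midpoint shares of broad and narrow peaks (under 1 kb) were 41.8% and 11.7%. At 100 to 200 they were 34.0% and 25.8%, at 200 to 500 44.6% and 45.6%, and at 500 or more 81.1% and 84.2%. In endosperm broad peaks had the lower share in each band, at 47.4% against 67.7% in the lowest and 94.6% against 98.4% in the highest.

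The form of the peaks differed between tissues at most of these places. At embryo broad peaks the endosperm showed a broad peak in 356 cases (20.2%, against 0.377% of all embryo peaks) and several narrow peaks in 437 (24.7%, against 0.84%). It showed 1 narrow peak in 554 (31.4%, against 22.5%) and none in 419 (23.7%, against 76.3%). At endosperm broad peaks the embryo showed a broad peak in 364 cases (34.7%, against 1.71% of all endosperm peaks) and several narrow peaks in 380 (36.3%, against 1.27%). It showed 1 narrow peak in 173 (16.5%, against 71.3%) and none in 131 (12.5%, against 25.7%). Merged over both tissues, the broad peaks formed 2442 separate loci. Of these, 348 (14.3%) were broad in both tissues, 1410 (57.7%) in embryo alone and 684 (28.0%) in endosperm alone.

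In embryo, the longer a broad peak was, the more often an endosperm peak lay there. An endosperm peak overlapped 71.2% of embryo peaks of 1000 to 1499 bp, 87.8% of those of 1500 to 1999 bp and 95.1% of those of 2000 bp or longer. The share that met a broad endosperm peak rose from 10.2% to 36.7% and 66.5%. Midpoint shares in these classes were 45.5%, 67.8% and 76.8%, and 67.7% for the 31 peaks of 4000 bp or longer. The overlap share also rose among narrow embryo peaks, from 11.4% under 200 bp to 60.1% at 750 to 999 bp. Over the same classes of broad peaks in endosperm, the share with any embryo peak showed no such order, at 87.0%, 91.2% and 84.5%. The share that met a broad embryo peak was 29.7%, 39.4% and 43.5%.

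**Figure D2:**
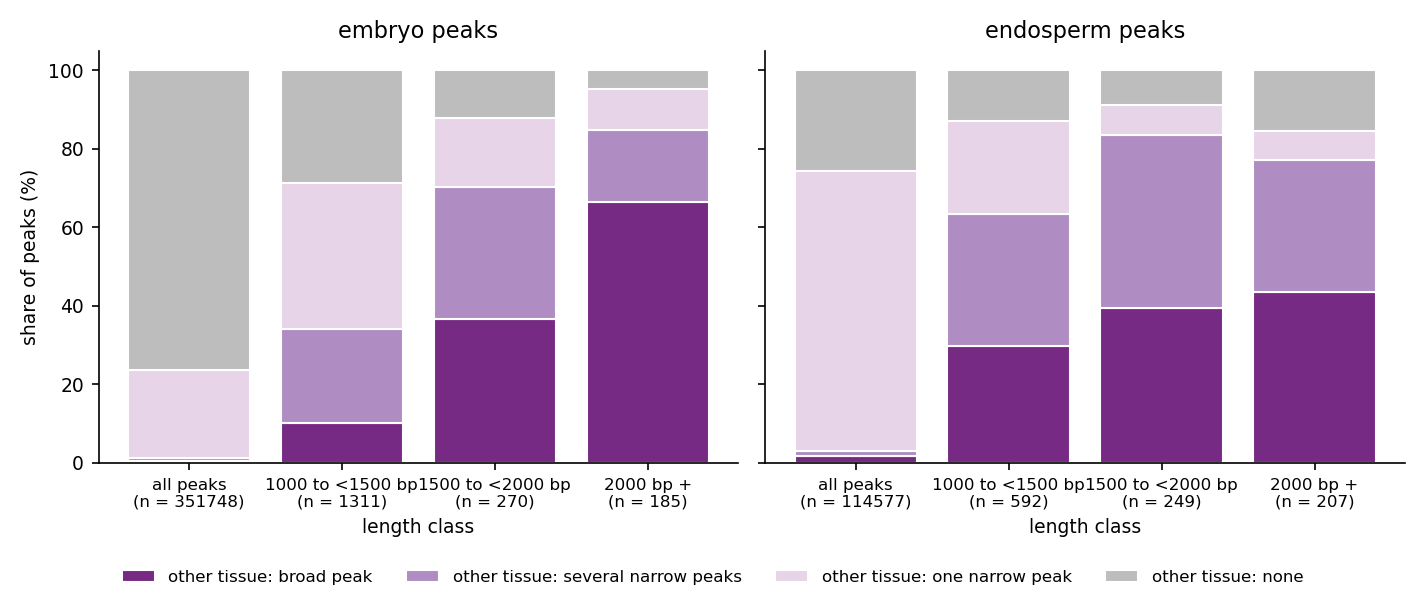
Share of embryo peaks (left) and endosperm peaks (right) at which the other tissue showed a broad peak, several narrow peaks, 1 narrow peak or none, for all peaks and for broad peaks in 3 length classes, with the number of peaks under each bar. The dark part, a broad peak in the other tissue, reached 66.5% of the longest embryo class and 43.5% of the longest endosperm class.

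By length, endosperm peaks covered 50.1% of the embryo broad peaks, whereas they covered 26.7% of embryo narrow peaks of 500 to 999 bp. Embryo peaks covered 69.5% of the endosperm broad peaks, which was below the 84.5% they covered of endosperm narrow peaks of 500 to 999 bp. The tissues thus differed in direction: embryo broad peaks were covered more than shorter embryo peaks, and endosperm broad peaks less than shorter endosperm peaks. At a diffScore of 50 to 100, 39.3% of the length of embryo broad peaks was covered, against 9.97% for embryo peaks of 500 to 999 bp with such scores. In that band the endosperm values were 48.1% for broad peaks and 67.8% for peaks of 500 to 999 bp. At a diffScore of 500 or more, the covered length was 74.7% for embryo broad peaks and 69.9% for embryo peaks of 500 to 999 bp, and 85.2% and 94.7% in endosperm, so each order was also present among the strongest peaks.

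Broad peaks with nothing in the other tissue were weaker by diffScore in both lists. In embryo these 419 peaks had a median length of 1104 bp and a median diffScore of 186.5, against 494.1 for the embryo peaks that met a broad endosperm peak. The nearest endosperm peak was a median of 3006 bp away, within 1 kb for 81 of them and beyond 10 kb for 82. In endosperm the 131 peaks had a median length of 1376 bp and a median diffScore of 107.1, against 304.1 for those that met a broad embryo peak. An embryo peak lay a median of 828 bp away, within 1 kb for 75 of them and beyond 10 kb for 2. Embryo peaks were denser along the chromosomes, with a median gap of 1341 bp between nearest peaks against 4969 bp in endosperm, and the part of this in the distances was not tested.

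Where the other tissue had several narrow peaks, it mostly had 2. This held for 355 of the 437 embryo broad peaks and for 370 of the 380 endosperm broad peaks in that class. The narrow embryo peaks under an endosperm broad peak had a median length of 578 bp with a median gap of 67 bp between them. In 137 cases (36.1%) they came within 50 bp of both edges of the broad peak or ran past them. The narrow endosperm peaks under an embryo broad peak had a median length of 367.5 bp and a median gap of 95 bp, and reached or passed both edges in this sense in 75 cases (17.2%). In these 137 cases the embryo peaks reached both edges of the broad endosperm peak, and how far they ran past them was not measured.

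There were 263 places where exactly 1 embryo broad peak met exactly 1 endosperm broad peak. Their edges differed by a median of 41 bp, and in 80 pairs (30.4%) both edges agreed to within 50 bp. For pairs of narrow peaks of 500 bp or longer in both tissues these values were 46 bp and 29.8%, so the edges of broad pairs lay about as far apart as those of shorter pairs. Among the 58 pairs of 2000 bp or longer in both tissues the median edge difference was 21 bp, and both edges agreed to within 50 bp in 29. The embryo peak was the longer one in 176 of the 263 pairs (66.9%), by a median of 37 bp over all pairs. Among pairs of narrow peaks it was the longer one in 85.1%. Where both narrow peaks were 500 bp or longer this share was 72.1%, with a median difference of 57 bp.

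**Figure D3:**
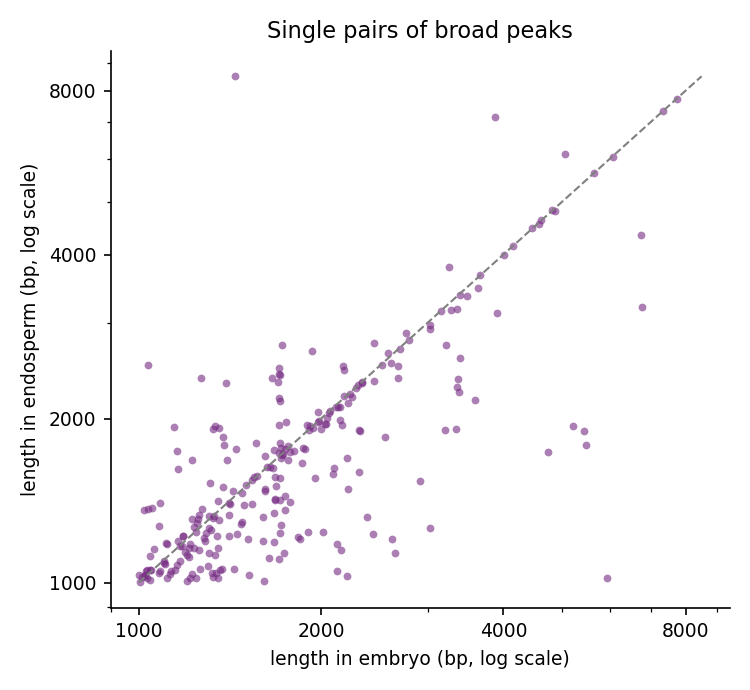
Length in embryo against length in endosperm (bp, log scales) for the 263 pairs of 1 embryo and 1 endosperm broad peak, with the dashed line marking equal lengths. Many of the longest pairs lie on the line, among them the pair of 7732 and 7716 bp on chromosome 4, whereas others are several times longer in 1 tissue.

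Several of the longest loci were shared almost to the base by both tissues. Coordinates are taken from the deposited lists, with 1 added to each start so that positions count from 1. Their genome build is not given in the sources used here. On chromosome 4 from 172377542 to 172385273 the embryo had a peak of 7732 bp with a diffScore of 1128, and the endosperm peak of 7716 bp began 9 bp later and ended 7 bp earlier. On chromosome 1 from 234523185 to 234530528 the embryo peak of 7344 bp met an endosperm peak whose edges differed by 13 and 30 bp, although both were weak for their length, with diffScores of 87.4 and 76.0. Nearby, from 234505419 to 234511476, the edges of the 6058 bp embryo peak differed from those in endosperm by 5 and 3 bp. On chromosome 4 from 172412023 to 172417664 the peaks of both tissues began at the same base and ended 4 bp apart. These shared loci lay close together, on short stretches of chromosomes 1 and 4.

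Other long embryo peaks were broken up or only partly present in endosperm. The longest, of 8148 bp on chromosome 5 from 105721888 to 105730035, had a diffScore of 117.9 and lay over 3 broad endosperm peaks of 3681, 2689 and 1327 bp that covered 94.5% of it. On chromosome 10 from 121000221 to 121007480 a 7260 bp embryo peak met endosperm peaks of 1389 and 5875 bp that lay next to each other. Also on chromosome 5, the 6751 bp peak from 105803975 to 105810725 lay over 6 endosperm peaks that covered 58.9% of it. The remaining long peaks were covered in part: the 6766 bp peak on chromosome 9 from 72309665 to 72316430 by 47.4%, the 6744 bp peak on chromosome 10 from 141241 to 147984 by 64.3%, and the 5922 bp peak on chromosome 5 from 105657052 to 105662973 by 17.2%.

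In endosperm the longest peak, of 8507 bp on chromosome 4 from 225146482 to 225154988, had a diffScore of 118.5 and was met by a 1440 bp embryo peak that covered 16.9% of it. Its neighbour from 225157418 to 225164713, of 7296 bp with a diffScore of 486.9, had no embryo peak, and the nearest one lay 4388 bp away. On chromosome 7 the 7162 bp endosperm peak from 129574874 to 129582035 ended 1 bp from the end of a 3876 bp embryo peak that covered 54.1% of it. Close by, the 6128 bp peak from 129562291 to 129568418 was covered to 82.6% by an embryo peak of 5060 bp. The other 6 of the 10 longest endosperm peaks were the partners of the embryo peaks on chromosomes 1, 4 and 10 or, on chromosome 1 from 234473465 to 234478302, a 4838 bp peak whose edges differed by 3 and 21 bp from those in embryo.

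The longest peak of each remaining class shows what a change of form looked like. The longest embryo peak over several narrow endosperm peaks was 5523 bp long, on chromosome 8 from 48277814 to 48283336, and 3 narrow peaks of 654 to 931 bp covered 40.6% of it. A 4609 bp embryo peak on chromosome 9 from 72251157 to 72255765 met 1 narrow endosperm peak of 538 bp. The longest embryo peak without any endosperm peak was 4185 bp long, on chromosome 10 from 48867002 to 48871186, and lay 4072 bp from the nearest one. At all these loci most of the length called in embryo was not called in endosperm.

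In endosperm the longest peak over several narrow embryo peaks was 3829 bp long, on chromosome 3 from 66755476 to 66759304, where the embryo had peaks of 579 and 475 bp that began 2690 and 3333 bp from its start. The next longest had a like layout, with embryo peaks 2661 and 3294 bp from the start of a 3821 bp peak on chromosome 10 from 67257541 to 67261361, and 2506 and 3178 bp from the start of a 3671 bp peak on chromosome 5 from 15989719 to 15993389. The longest endosperm peak over 1 narrow embryo peak, of 3850 bp on chromosome 9 from 126156611 to 126160460, also had it 2677 bp from its start. At these 4 loci, on 4 chromosomes, the embryo peaks lay toward the end with the higher coordinate, and the first part of the broad endosperm peak had no embryo peak. The loci on chromosomes 10 and 5 were named after their values were seen.

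Along the chromosomes, embryo broad peaks ranged from 0.550 per Mb on chromosome 6 to 1.23 on chromosome 7. Endosperm broad peaks ranged from 0.332 per Mb on chromosome 3 to 1.12 on chromosome 6. Chromosome 6 was thus lowest in embryo and highest in endosperm, with 93 and 190 broad peaks, a ratio of 0.489 (0.382 to 0.627). The ratio was highest on chromosome 1, at 2.50 with 307 and 123 broad peaks.

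**Figure D4:**
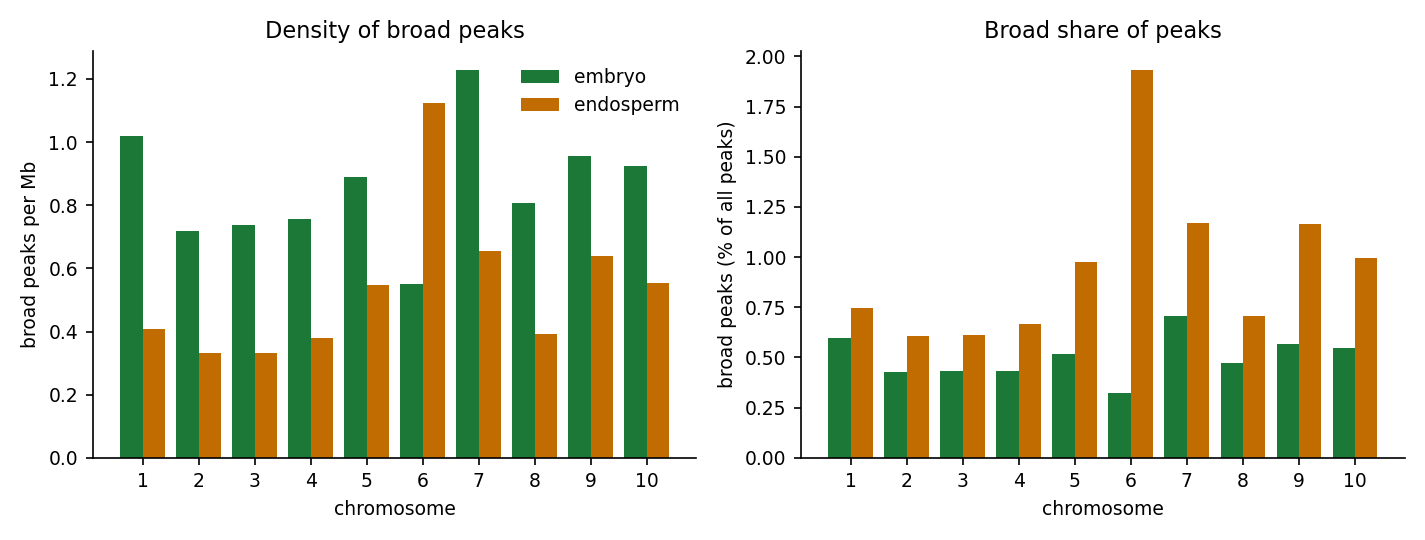
Broad peaks per Mb of chromosome (left) and as a percentage of all peaks on that chromosome (right), for embryo (green) and endosperm (orange) on chromosomes 1 to 10. The endosperm bar is the taller one in density on chromosome 6 alone, at 1.12 against 0.550 per Mb.

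The endosperm excess on chromosome 6 was concentrated between 10 and 13 Mb. There the endosperm had 109 broad peaks and the embryo 1, although the embryo had more peaks of any length there, 967 against 683. The broad endosperm peaks in this interval were 1002 to 1933 bp long, and their median diffScore of 594.9 was above the 272.1 of those elsewhere. The embryo had a peak at nearly all of them, with several narrow peaks at 78, 1 narrow peak at 29, a broad peak at 1 and none at 1, and its peaks covered 81.7% of their length against 68.4% elsewhere. Without this interval the endosperm had 939 broad peaks and the embryo 1765 over all 10 chromosomes, a ratio of 1.88 (1.74 to 2.03). The rest of chromosome 6 also had stretches of 1 Mb that leaned to endosperm and were among the fullest in broad peaks. Endosperm and embryo had 19 and 1 from 15 to 16 Mb, 15 and 3 from 20 to 21 Mb, and 11 and 7 from 118 to 119 Mb.

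By position along the chromosome arms, 31.6%, 37.8% and 30.6% of embryo broad peaks lay in the left, central and right of 3 equal parts, against 33.4%, 34.8% and 31.8% of all embryo peaks. In endosperm the shares were 40.6%, 30.1% and 29.4%. Without the interval on chromosome 6 they were 33.7%, 33.5% and 32.8%, against 33.4%, 34.5% and 32.1% of all endosperm peaks. With 5 equal parts the leftmost still held 24.4% of endosperm broad peaks without that interval (21.7 to 27.2%), against 19.9% of all endosperm peaks. Within 5 Mb of a chromosome end lay 6.57% of embryo and 8.40% of endosperm broad peaks, against 4.40% and 4.56% of all peaks. The ends used here are the last peak on each chromosome.

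Broad peaks were unevenly spread at a finer scale. Of 2064 windows of 1 Mb, 935 (45.3%) held an embryo broad peak and 337 (16.3%) an endosperm one. The 20 windows with most broad peaks held 22.9% of those in embryo and 35.7% of those in endosperm. The 20 windows with most peaks of any length held 1.47% and 2.46% of all peaks. Broad peaks were fewer than the windows, and such sparse counts raise the share of the fullest windows even under random spread. The size of this part was not tested. Of the 20 windows with most broad peaks, 12 were the same in both tissues. The fullest embryo window, on chromosome 1 from 134 to 135 Mb, held 47 embryo and 22 endosperm broad peaks. Windows on chromosome 8 from 48 to 49 Mb and on chromosome 7 from 60 to 61 Mb were also rich in both, with 29 and 23, and 25 and 21. The first Mb of chromosome 9 had 20 and 29. Others leaned to 1 tissue: on chromosome 7 from 22 to 23 Mb there were 21 embryo and 3 endosperm broad peaks, and on chromosome 6 from 15 to 16 Mb 1 and 19.

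Endosperm broad peaks came in groups far more often than those of embryo. With clusters defined as runs of broad peaks at most 10 kb apart, 778 endosperm broad peaks (74.2%) lay in 266 clusters and 520 embryo broad peaks (29.4%) in 148. The nearest broad peak of the same tissue was a median of 3411 bp away in endosperm and 217083 bp in embryo. Most endosperm clusters were small, and 138 of them held exactly 2 broad peaks, spread over all 10 chromosomes. The clustered share in endosperm was 75.0% outside the interval on chromosome 6, so it did not rest on that interval. When peaks within 500 bp were joined first, the shares were 37.5% in endosperm and 24.5% in embryo.

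The distances within these clusters also differed. Of 372 gaps under 10 kb between neighbouring embryo broad peaks, 135 (36.3%) were under 1 kb. In endosperm 114 of 512 such gaps (22.3%) were under 1 kb and 282 (55.1%) were of 1 to 5 kb, against 131 (35.2%) in embryo. The endosperm gaps were most frequent, apart from those under 1 kb, at 2 to 3 kb with 94 and at 3 to 4 kb with 85. Of the 282 gaps of 1 to 5 kb, 256 lay outside the interval on chromosome 6.

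**Figure D5:**
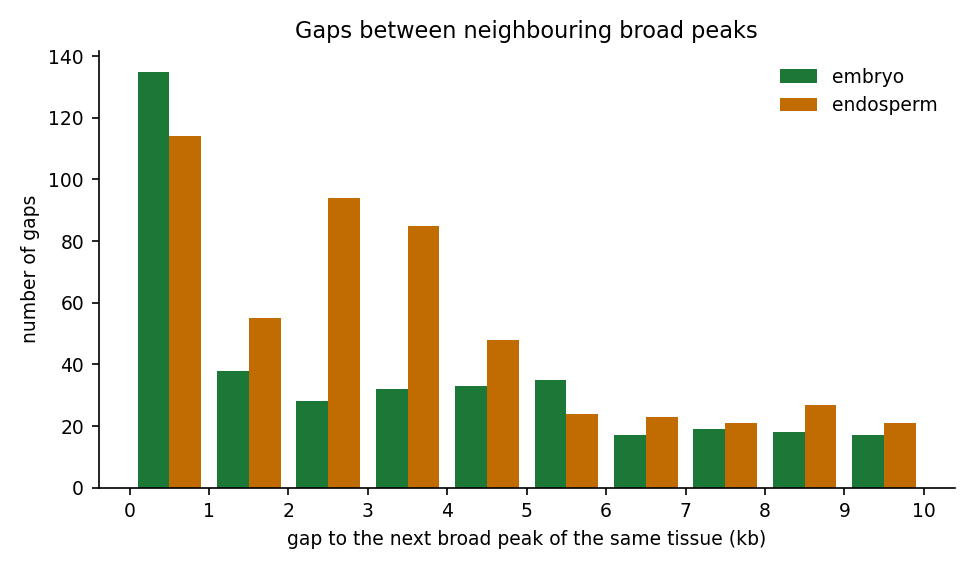
Number of gaps between neighbouring broad peaks of the same tissue by gap length in kb, up to 10 kb, for embryo (green) and endosperm (orange). The endosperm has a further maximum at 2 to 4 kb, with 94 and 85 gaps in these bins, which the embryo lacks.

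Clustered embryo broad peaks were longer and more often shared than lone ones. Their median length was 1565 bp against 1146 bp, and 47.3% of them met a broad endosperm peak against 8.83% of lone ones. In endosperm the lengths were closer, 1416.5 and 1301 bp, and the order of sharing was the other way, with 32.0% of clustered and 42.6% of lone broad peaks on a broad embryo peak. Length and sharing rose together in embryo, as given above, and the part of length in this was not tested.

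The largest embryo cluster, of 18 broad peaks, lay on chromosome 8 from 48212942 to 48303511, over 90.6 kb. The endosperm had 12 broad and 22 narrow peaks in it. The endosperm clusters with most broad peaks held 11 each, on chromosome 7 from 129562291 to 129635935, on chromosome 8 from 48158476 to 48198481 and on chromosome 2 from 415186 to 479798, and the embryo had 11, 10 and 7 broad peaks there. Some clusters had no broad peak in the other tissue. On chromosome 7 from 54774741 to 54839312 the embryo had 10 broad peaks where the endosperm had 21 narrow ones, and from 172591670 to 172633699 on the same chromosome the endosperm had 9 broad peaks where the embryo had 16 narrow ones. These last clusters were named after their values were seen.

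Gene regions at broad peaks could be read only at the start of chromosome 1, from the rows at hand of the study's lists of methylated gene regions. There, 4 of 17 embryo broad peaks up to position 22623587 and 6 of 21 endosperm broad peaks up to position 62527212 were assigned to a gene region, which is 23.5% (9.56 to 47.3%) and 28.6% (13.8 to 49.96%). Of all peaks in the same stretches, 24.0% in embryo and 26.4% in endosperm were, so the broad peaks were close to the lists as a whole. The 4 embryo peaks all lay over several narrow endosperm peaks. The one from 8092228 to 8093284 was assigned to coding, exonic and intronic sequence of GRMZM2G056377 and the one from 13150789 to 13152195 to an exon of GRMZM2G010407. The others lay from 11105637 to 11106900 at an exon of GRMZM2G112883 and from 17710634 to 17711633 at an exon of GRMZM5G890758 and the promoter of GRMZM2G109586. The rows at hand give no function for these genes. They place further genes, not named here, at each of the 4 peaks.

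Of the 6 endosperm peaks with a gene region, 1 had no embryo peak. It spanned 1673 bp from 8187556 to 8189228, with the nearest embryo peak 6572 bp away, and was assigned to coding sequence of GRMZM2G587606, which the study annotates as a subunit of the cytochrome b6/f complex. This complex carries electrons between the photosystems, and the gene of that subunit is normally encoded by the chloroplast genome. The longest of the 6, of 4118 bp from 23796572 to 23800689 with a diffScore of 1051, lay at the promoter of GRMZM2G046620 and was covered to 95.9% by embryo peaks. Another, from 31346124 to 31347177, was assigned to coding, exonic and intronic sequence of GRMZM2G402069 and was covered to 97.2% by a broad embryo peak. The remaining 3 were assigned only to a transcriptional termination region. Their genes, and further genes at the other 3 peaks, are not named here.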

How the data were processed

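The data are MeDIP-seq peak lists of B73 embryo and endosperm, with 1 library each. The authors cleaned reads with fastx, mapped them with Bowtie2 2.0.5 and called peaks with MACS, with 1 list per library. The deposited lists give each peak's start, end and score (diffScore, minus 10 times the log10 of the MACS p-value). The genome build is not given in the sources used here, and no genome was used, so no sequence is printed. The lists hold no read numbers, and whether an input library was used is not given in the sources used here.

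Peaks of 1000 bp or longer on chromosomes 1 to 10 were kept. Overlap meant 1 bp or more. Clusters were runs of broad peaks at most 10 kb apart. Python 3.11.15 scripts with pandas 2.3.3, numpy 2.4.6 and scipy 1.17.1 computed all values. Before this, 5 checks were run, on up to 4000 simulated peaks or on the overlaps of the broad peaks against bedtools 2.31.1. No test was run, since there are no replicates, and intervals are Wilson 95% intervals; for a ratio of counts, the interval of the embryo share of both counts was turned into a ratio. Named loci were the 10 longest per tissue, the longest per class and the largest clusters. Named genes were part of those the study's rows place at a broad peak. Alternatives were other length, score, joining, overlap and gap settings. Members and lists were chosen with earlier results of these data known. Peaks on other sequences were left out of the comparisons.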

Additional observations from a re-analysis of the deposited data

Results flagged for a closer look

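Broad peaks were also present outside chromosomes 1 to 10, in sequences the report's comparisons did not use. On the unplaced sequence named UNKNOWN there were 165 broad peaks among 1652 in embryo (9.99%, 8.63 to 11.5%) and 185 among 1013 in endosperm (18.3%, 16.0 to 20.8%), covering 352 and 339 kb. On the mitochondrial genome 16 of 20 endosperm peaks were broad (80.0%, 58.4 to 91.9%), the longest of 6580 bp, against 2 of 65 in embryo. On the chloroplast genome 8 of 11 endosperm peaks were broad (72.7%, 43.4 to 90.3%), the longest of 4192 bp, against 0 of 7 in embryo. The paper takes the chloroplast genome to lack methylation activity and counted only nuclear reads. Whether these chloroplast peaks reflect methylated DNA was not tested. A difference between libraries cannot be told apart from one between tissues here.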

How the results depend on the processing

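Of 82 alternatives to 14 results, 34 stayed within the counting interval, or within 1.5 times for counts and covered lengths, and 48 moved. Lengths of 800, 1500 and 2000 bp gave 6139, 455 and 185 broad peaks in embryo (6387, 1043 and 582 kb), and 1570, 456 and 207 in endosperm (2185, 1014 and 579 kb), so that at 800 bp the broad share was larger in embryo. Joining peaks within 200 or 500 bp gave 6208 and 19429 in embryo (8597 and 26209 kb) and 1701 and 2955 in endosperm (2750 and 4602 kb). A diffScore of at least 200 left 666 in endosperm (1111 kb). The embryo share with an endosperm peak was 52.2% by midpoint, 90.8% and 95.1% from 1500 and 2000 bp, and 50.7% with a diffScore of at least 100 in both lists. The endosperm share was 90.3% with embryo peaks within 200 bp, 73.7% by midpoint and 84.5% from 2000 bp.

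With the length limit raised to 1500 and 2000 bp in both lists, the embryo share on a broad endosperm peak was 34.5% and 36.8%, with a diffScore of at least 100 it was 18.3%, and with peaks within 500 bp joined 11.1%. The endosperm share was 38.7% without chromosome 6 from 10 to 13 Mb and 73.6% with joined peaks. Covered length was 64.0%, 67.7% and 36.7% in embryo from 1500 bp, from 2000 bp and with a diffScore of at least 100, and 62.3% in endosperm from 2000 bp. The leftmost of 5 equal parts of a chromosome held 20.2% in embryo and 32.3% in endosperm (24.4% without the interval on chromosome 6). From 1500 bp the left of 3 parts held 27.7% and 33.3%, and the interval was not left out at that limit. At the 1000 bp limit it held 33.7% in endosperm without the interval on chromosome 6. Clustered shares with gaps of 5 and 50 kb were 23.8% and 36.3% in embryo and 62.4% and 85.0% in endosperm, and with joined peaks 24.5% and 37.5%. Joining for the overlap with broad peaks and for clusters was chosen after seeing the data. The cause of these changes was not tested beyond what each setting itself alters. No paired analysis was possible because neither tissue has replicate libraries. Depth limits what a missing peak means: where a tissue has none, no peak was called at this depth.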
